A study of Mus musculus with 12 samples.

Results

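The major urinary protein (Mup) genes code for small lipocalins, barrel-shaped carrier proteins that the liver secretes into blood and that pass through the kidney into urine. In mice they carry pheromones and are among the most abundant liver transcripts of males. Members of this family were followed across all libraries, taken by name from the deposited table of TPM (transcripts per 1000000, scaled for gene length): Mup1, Mup2, Mup3, Mup7, Mup9, Mup11, Mup12, Mup17, Mup20 and Mup21, 10 genes of 57010 in the table. A further 39 rows carry a Mup name and were used only for comparison.

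RNA was sequenced from the livers of wild-type male C57BL/6J mice on a normal diet, with 6 livers in each of 2 groups. The animals entered at 6 weeks of age, with 7 days to acclimatise. The selenium group received 0.5 mg of selenium per kg by gavage each day, as the selenium-enriched fungus A. oryzae A02 in saline, and the control group is labelled as having no treatment. Fungus and selenium came as 1 preparation and cannot be told apart, and whether controls were gavaged with saline is not stated in the labels. The duration is given as 8 weeks in the design text and 14 weeks in the sample descriptions, and which of them is age is not stated. The protocol names 10 mice per group, and 6 libraries of each were analysed here. The comparison asks whether Mup transcripts differ between livers of mice given the selenium-enriched fungus and livers of untreated mice.

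Transcription of the Mup genes in male liver is driven by the pulsed release of growth hormone from the pituitary, which acts through the growth hormone receptor and STAT5b. Glucocorticoids, thyroid hormone and liver factors such as HNF1, HNF4 and C/EBP are also known to act on these genes. Mup20 encodes darcin, the male pheromone protein that attracts females. The genes lie in a cluster on chromosome 4, most of them as recent duplicates that are almost identical.

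The coding sequences are shown because the likeness of the copies limits how far reads can be assigned to 1 gene. In GENCODE M21 (build GRCm38), the coding sequences of Mup1, Mup2, Mup7, Mup9, Mup11, Mup12 and Mup17 were 98.35% to 99.63% identical over their 21 pairs. The 24 pairs that involve Mup3, Mup20 or Mup21 were 82.86% to 94.77% identical. The stretch from position 244 to position 303 of the coding sequence, counted from the A of the start codon, separates the groups, with capitals at bases that differ from Mup9.
Mup9, Mup7 and Mup17: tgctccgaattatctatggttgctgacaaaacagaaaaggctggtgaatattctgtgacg
Mup1, Mup2, Mup11 and Mup12: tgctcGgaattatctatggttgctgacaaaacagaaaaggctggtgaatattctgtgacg
Mup20: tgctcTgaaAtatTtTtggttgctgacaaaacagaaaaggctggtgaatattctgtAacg
Mup3: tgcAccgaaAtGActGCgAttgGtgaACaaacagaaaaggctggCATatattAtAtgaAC
Mup21: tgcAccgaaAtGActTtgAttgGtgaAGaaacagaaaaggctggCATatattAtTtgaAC
Over the whole aligned coding sequence, inserted and missing bases counted, Mup2 was 99.63% identical to Mup9, Mup1 and Mup12 99.45% each, Mup11 99.27%, Mup17 99.26% and Mup7 99.08%, against 91.03% for Mup20, 84.94% for Mup21 and 83.75% for Mup3.

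Stretches of 50 bases were taken from 1 annotated transcript of each member. Mup2 had 0% that occur in no other Mup gene, Mup7 had 3.64%, Mup1 had 5.24% and Mup9 had 7.85%. Mup12 had 14.6% and Mup17 had 21.9%, and for Mup11 it was 97 of 881 stretches. Mup20 had 49.9%, Mup21 had 80.7% and Mup3 had 84.4%. No source used here gives the read length. With stretches of 100 bases the share was 2.66% for Mup2, 14.9% for Mup9 and 97.1% for Mup3. The values of the 7 near-identical members therefore depend on how the authors' estimation divided shared reads, and each is uncertain as a value of 1 gene. Their sum depends less on that division, although reads may also be shared with Mup rows outside the 10.

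Promoter sequence is shown because 6 of the 7 near-identical members had higher values with selenium at an unadjusted limma p under 0.05, with 0 past the adjusted threshold, and 5 of these 6 have a promoter entry. RefSeq promoter windows (250 bases before to 50 after the listed start, build GRCm38.p6) matched 7 of the 10 members: Mup2, Mup3, Mup7, Mup9, Mup11, Mup17 and Mup21. The stretch of 73 bases lies before the start on the minus strand of chromosome 4, with capitals at bases that differ from Mup9.
Mup9, chr4:60422101-60422173: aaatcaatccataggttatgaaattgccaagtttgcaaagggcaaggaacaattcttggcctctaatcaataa
Mup7, chr4:60070487-60070559: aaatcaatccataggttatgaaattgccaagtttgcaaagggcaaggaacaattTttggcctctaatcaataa
Mup3, chr4:62087410-62087481: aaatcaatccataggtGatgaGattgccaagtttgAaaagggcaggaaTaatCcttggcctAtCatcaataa
Mup21, chr4:62150928-62150999: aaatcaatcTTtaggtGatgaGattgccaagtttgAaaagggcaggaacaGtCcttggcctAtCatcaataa
Mup2, Mup11 and Mup17 had the same letters as Mup9 in this stretch, Mup7 differed at 1 base, and Mup3 and Mup21 differed at 7 and 9 bases with 1 base missing.

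Motifs were searched on both strands of the whole windows. The STAT5 motif TTCNNNGAA was in 8.3% of all 32851 promoters of the same length and in 0 of the 7 members. The BCL6 motif TTCCTNGAA, which overlaps it, was in 1.59% of all promoters, and the HNF4 motif CAAAGTCCA was in 0.475%, again with 0 of 7 members. The longer HNF1 and glucocorticoid receptor motifs were each in 0.00913% of all promoters and in no member window. The TATA motif TATAAA was in 13.6% of all promoters and in 0 of 7 members. The variant TATATAA, chosen after the sequences were seen, was in 3.24% of all promoters and in 6 of the 7 members, all but Mup7. The 73-base stretch ends 11 bases before the listed start in Mup7, but 86 to 148 bases before it in the other members. The Mup7 window therefore covers less of the sequence after that stretch, and whether the variant lies beyond it was not tested. A missing match says only that these letters are not in this window.

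Summed over the 10 members, Mup transcripts made up 20.5 ± 6.16% (SD, n = 6) of all TPM in control livers and 28.8 ± 4.76% (SD, n = 6) in selenium livers. The sum was 104213 TPM in the lowest control, 208692 at the median and 288213 in the highest. In selenium livers it was 224338 at the lowest, 281974 at the median and 353357 at the highest. All 6 selenium livers were above the control median, 3 were above the highest control, and 4 controls were below the lowest selenium liver, so the groups overlapped. The mean sum was 205146 ± 61557 TPM (SD, n = 6) in controls and 288054 ± 47591 TPM (SD, n = 6) with selenium, which is 1.40-fold. On the log2 scale the sums differed by 0.54, against an SD of 0.39 between livers of the same group, pooled over both groups. Controls spread more, with a coefficient of variation of the sum of 30.0% against 16.5% with selenium. No test is given for the sum, whose members were chosen with results of these data known. Without control 5, the liver with the lowest sum, the log2 difference was 0.36.

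**Figure D1:**
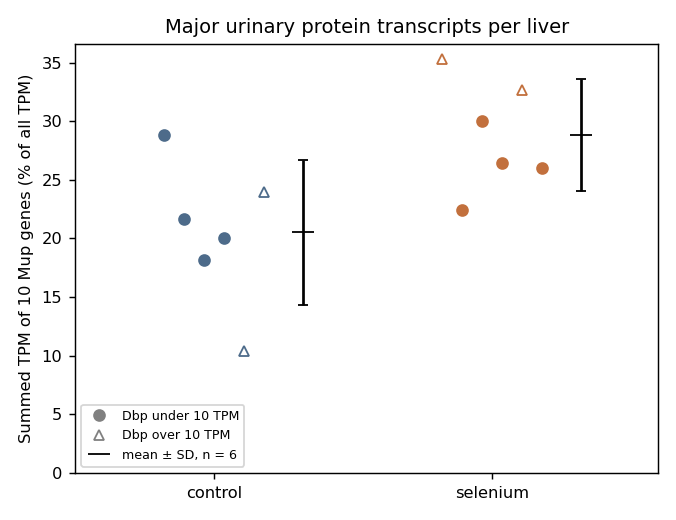
Summed TPM of the 10 Mup genes in each of 12 livers, by group, as a percent of all TPM. Circles are livers with Dbp, a gene whose level in liver follows the time of day, under 10 TPM, open triangles are livers with Dbp over 10 TPM, and black marks the mean ± SD of 6 livers. Control 5 is lowest at 10.4% and selenium 1 highest at 35.3%, and the groups overlap.

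Because TPM are shares of a fixed total, a liver with more Mup transcripts has less TPM for all other genes. The genes that are no Mup rows held 758679 ± 68167 TPM (SD, n = 6) in controls and 670110 ± 50742 TPM (SD, n = 6) with selenium. The data are from bulk liver, where fewer cells of a type and less RNA per cell cannot be told apart. Hepatocyte markers were high in every liver, with sums of 29563 to 50032 TPM in controls and 31356 to 48621 TPM with selenium. The labels also name hepatocytes as the cell type, but red blood cell markers summed to 404 to 4271 TPM in controls and 378 to 1494 TPM with selenium. For the marker counts given here, 45.4% of all tested genes had a log2 difference above 0. At an unadjusted limma p under 0.05, 7.01% of all tested genes were higher and 11.4% lower with selenium. Kupffer cell and macrophage markers summed to 83.6 to 183 TPM and 72.9 to 337 TPM. All 11 had a log2 difference above 0, with 0 past the adjusted threshold and 0 at an unadjusted limma p under 0.05. Endothelial markers summed to 27.3 to 66.0 and 31.7 to 58.2 TPM, stellate cell markers to 51.2 to 72.9 and 20.6 to 88.5 TPM, cholangiocyte markers to 25.7 to 269 and 16.0 to 133 TPM, and lymphocyte markers to 3.58 to 9.04 and 1.83 to 9.85 TPM. Pericentral hepatocyte markers summed to 5080 to 10056 and 6938 to 8846 TPM and periportal ones to 3880 to 6066 and 3233 to 5354 TPM. Exocrine pancreas markers summed to 16.2 to 46.9 and 22.2 to 46.9 TPM, with Prss1 at 0 in all livers. By direction, log2 differences were above 0 for 5 of 8 hepatocyte markers tested (median 0.12), 3 of 7 endothelial (median -0.06), 0 of 6 stellate cell (median -0.34), 0 of 2 cholangiocyte (median -0.52), 1 of 2 lymphocyte (median -0.20) and 1 of 5 red blood cell markers (median -0.43). Among these, 0 passed the adjusted limma threshold, and 2 hepatocyte markers with higher values, 1 endothelial marker (Fcgr2b) and 1 stellate cell marker (Dcn) with lower values had an unadjusted p under 0.05. The part of other cell types in the Mup differences was not tested.

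The values of the 10 genes were compared between groups with limma on log2(TPM + 1), with Benjamini-Hochberg adjustment over all 9980 genes at 1 TPM or more in at least 6 livers. All 10 Mup genes passed that filter. At an adjusted p under 0.05, 0 of the 10 were called, against 0.331% of all tested genes (33 of 9980), of which 0.02% were higher and 0.311% lower with selenium. The gene with the clearest difference in the series was Srsf5, a splicing factor, at 101 ± 15.9 TPM in control livers and 44.5 ± 6.27 TPM in selenium livers (SD, n = 6 each), with a limma adjusted p of 0.00331. At an unadjusted p under 0.05, 6 of the 10 Mup genes had higher values with selenium (Mup2, Mup7, Mup9, Mup11, Mup12 and Mup17) and 0 had lower values, against 7.01% and 11.4% of all tested genes. The log2 difference was above 0 in 9 of 10 members, against 45.4% of all genes, with a median of 0.54 against -0.03. The near-identical members share reads, so these counts do not stand for independent genes. Values of 0 of 10 members were separated between groups without overlap, against 0.16% of all genes that were higher and 1.47% that were lower.

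**Figure D2:**
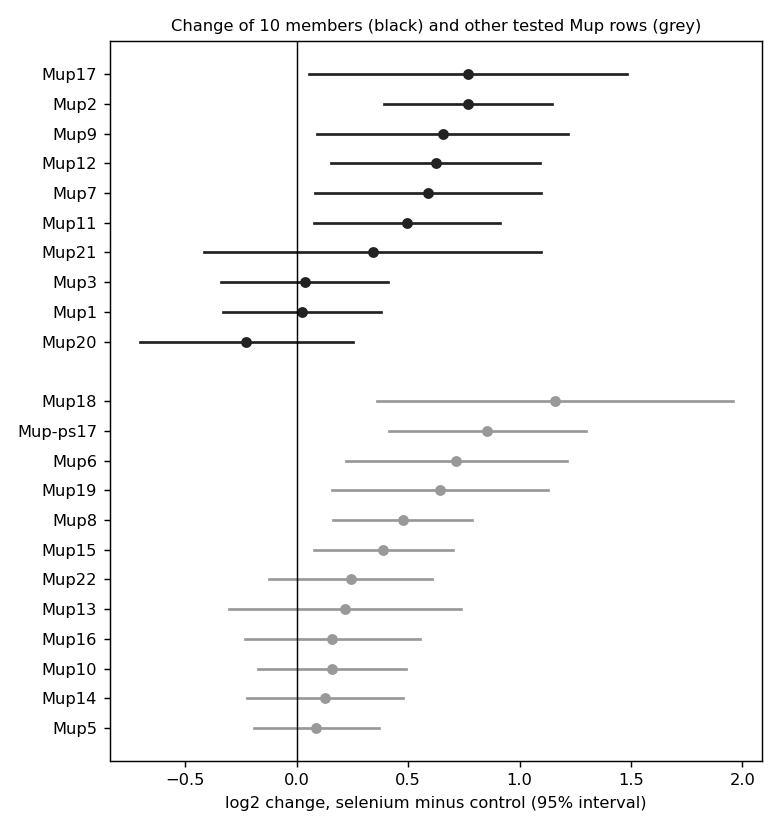
Log2 difference between selenium and control livers with its 95% interval from limma, on the log2(TPM + 1) scale, for the 10 Mup genes (black, upper rows) and the 12 other Mup rows that were tested (grey, lower rows). Among the 10, the intervals of Mup2, Mup7, Mup9, Mup11, Mup12 and Mup17 lie above 0, those of Mup1, Mup3, Mup20 and Mup21 include 0, and no row passed the adjusted threshold. Mup1 and Mup3 changed sign when TPM were rescaled without mitochondrial-encoded genes.

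Mup9 was the most abundant member in every liver. It was at 51133 TPM in the lowest control, 120459 at the median and 177358 in the highest, and at 131780, 178031 and 229589 TPM in selenium livers. Control 5 was lowest and 3 of 6 selenium livers were above the highest control, so the groups overlapped. Its mean was 120014 ± 41933 TPM in control livers and 179813 ± 34725 TPM in selenium livers (SD, n = 6 each). Mup9 alone was 5.11% to 17.7% of all TPM in controls and 13.2% to 23.0% with selenium. The log2 difference was 0.65 (SE 0.26, 95% interval 0.09 to 1.22), with a limma p of 0.0255 and an adjusted p of 0.209. Without control 5 it was 0.43.

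Mup2, the member with the smallest p, was low in level. It ranged from 1181 TPM in the lowest control through a median of 1601 to 2009 in the highest, and from 1927 through 2650 to 3284 TPM with selenium. All but 1 selenium liver lay above the highest control. The log2 difference was 0.77 (SE 0.18, 95% interval 0.39 to 1.14), a fold of 1.70, with a limma p of 0.000614 and an adjusted p of 0.0671. No 50-base stretch of the 1 Mup2 transcript examined was its own. By this measure its level rests, of all members, most on the division of shared reads.

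Mup12 and Mup7 were the next most abundant after Mup9 in selenium livers. Mup12 was at 11535, 21323 and 31745 TPM in the lowest, median and highest control and at 28073, 31090 and 38402 TPM with selenium. Its log2 difference was 0.62 (SE 0.22) with a limma adjusted p of 0.163. Mup7 was at 12587, 21068 and 31822 TPM in controls and at 25099, 28053 and 38983 TPM with selenium, and its log2 difference was 0.59 (SE 0.24) with a limma adjusted p of 0.210. For both, 5 of 6 controls were below the median of the selenium livers, and control 1 lay above it.

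Mup17 and Mup11 were lower in level and had the same direction. Mup17 was at 1411, 2722 and 5646 TPM in the lowest, median and highest control and at 3085, 4539 and 6362 TPM with selenium, with a log2 difference of 0.77 (SE 0.33) and a limma adjusted p of 0.239. Mup11 was at 370, 745 and 967 TPM in controls and at 792, 981 and 1089 TPM with selenium, with a log2 difference of 0.50 (SE 0.19) and a limma adjusted p of 0.201. Mup17 was among the most variable members, with a coefficient of variation of 55.6% in controls and 30.7% with selenium, against 28.3% and 11.1% for Mup11.

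Mup1, 99.45% identical to Mup9 in coding sequence, had nearly equal means in both groups. It was at 18142, 23760 and 34536 TPM in the lowest, median and highest control and at 20617, 25890 and 29085 TPM with selenium. Its log2 difference was 0.02 (SE 0.17, 95% interval -0.33 to 0.38), with a limma adjusted p of 0.964. The interval includes differences of up to 0.38, so equality was not shown.

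The 3 divergent members can be told apart by more of their reads. Mup3 was at 6744, 10314 and 11574 TPM in the lowest, median and highest control and at 7400, 10418 and 13470 TPM with selenium, with a log2 difference of 0.04 (SE 0.17, 95% interval -0.34 to 0.41) and a limma adjusted p of 0.939. Mup21 was at 284, 580 and 1379 TPM in controls and at 465, 704 and 1500 TPM with selenium, with a log2 difference of 0.34 (SE 0.35) and a limma adjusted p of 0.646. Mup20, the darcin gene, was at 572, 981 and 1482 TPM in controls and at 640, 758 and 1039 TPM with selenium. It was the only one of the 10 with a log2 difference below 0, at -0.23 (SE 0.22, 95% interval -0.70 to 0.25), with a limma adjusted p of 0.624. Mup3, Mup20 and Mup21 together summed to 11545 ± 1971 TPM in control livers and 11804 ± 2583 TPM in selenium livers (SD, n = 6 each), against 193601 ± 60082 and 276250 ± 46324 TPM for the 7 near-identical members. The difference between those sums was not tested. The direction of Mup1 and Mup3 was reversed when TPM were rescaled without mitochondrial-encoded genes, to -0.0755 and -0.0615 on the log2 scale.

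**Figure D3:**
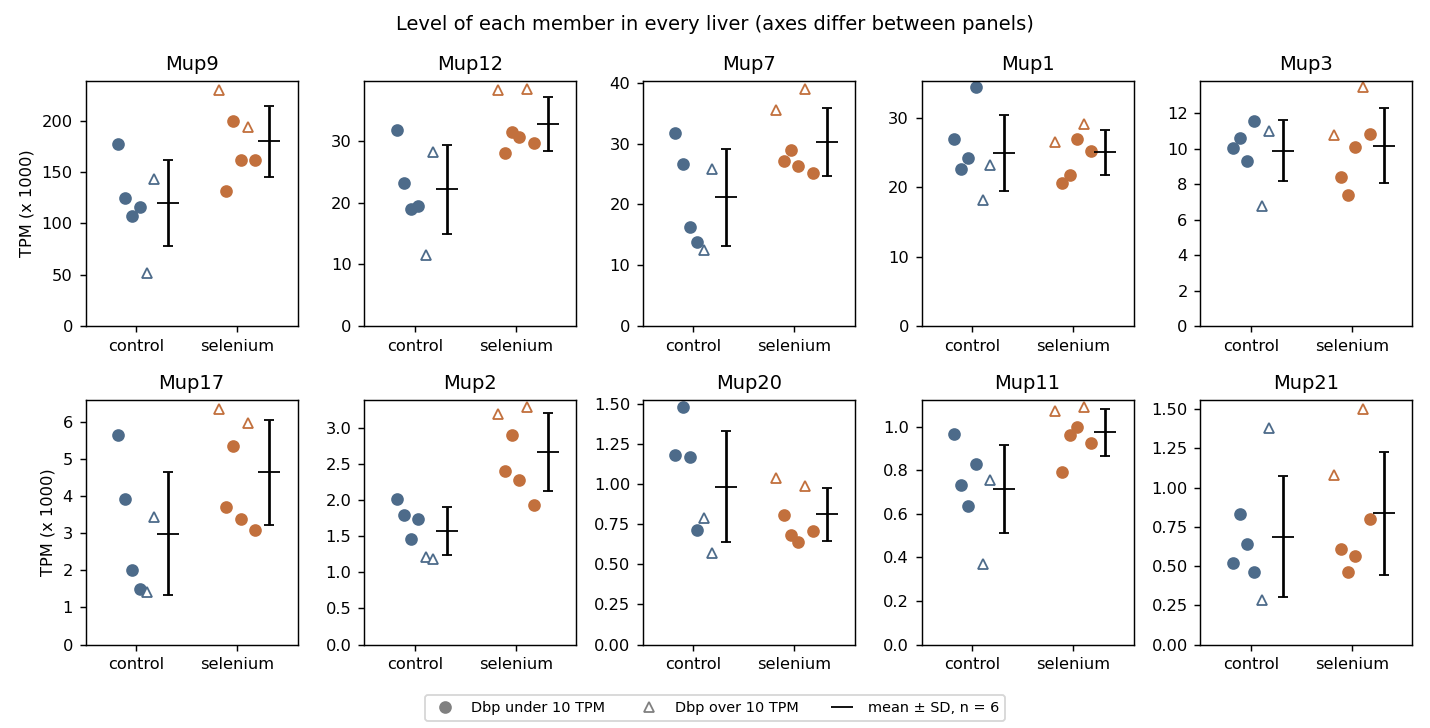
TPM, in units of 1000, of each of the 10 Mup genes in 12 livers, 1 gene per panel on a linear axis from 0 whose scale differs between panels, with control and selenium livers side by side and the mean ± SD of 6 livers in black. Circles are livers with Dbp under 10 TPM and open triangles livers with Dbp over 10 TPM. The groups overlap for every gene, least for Mup2, where 5 of 6 selenium livers are above the highest control at 2009 TPM.

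The authors' deposited table of their own comparison gave smaller adjusted p-values for all members but Mup20. In it 2 of the 10 members had an adjusted p under 0.05, Mup2 with a log2 fold change of 0.84 (adjusted p = 0.00343) and Mup12 with 0.65 (adjusted p = 0.0418). The authors' deposited table called 9.87% of the same 9980 genes in either direction and 6.97% as higher with selenium. Mup9 had a log2 fold change of 0.72 and an adjusted p of 0.0589 in the authors' deposited table, and Mup11 had 0.53 and 0.0767. Mup1, Mup3, Mup20 and Mup21 had adjusted p-values of 0.605 or more in the authors' deposited table.

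The order of the members by mean TPM was led by Mup9 in both groups. In controls Mup9 was followed by Mup1, Mup12, Mup7, Mup3, Mup17, Mup2, Mup20, Mup11 and Mup21, with Mup9 at 4.81 times Mup1. The mean ± SD ranges of Mup1, Mup12 and Mup7 overlapped from each to the next, as did those from Mup17 through to Mup21. Within single livers, Mup2 was above Mup20 in 6 of 6 controls and Mup17 above Mup2 in 5. The other overlapping neighbours kept their order in 3 or 4 of 6 controls. With selenium the order was Mup9, Mup12, Mup7, Mup1, Mup3, Mup17, Mup2, Mup11, Mup21 and Mup20, with Mup9 at 5.49 times Mup12. Neighbours whose ranges overlapped there were Mup12 and Mup7, Mup7 and Mup1, Mup11 and Mup21, and Mup21 and Mup20. Within single selenium livers, Mup12 was above Mup7 in 5 of 6. Mup7 was above Mup1 and Mup11 above Mup21 in 4 each, and Mup21 above Mup20 in 3.

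Within the family, Mup9 took 57.5 ± 4.38% of the summed TPM in controls and 62.2 ± 3.10% with selenium (SD, n = 6 each). Mup1 took 12.9 ± 3.69% and 8.80 ± 1.18%, and Mup3 took 5.05 ± 1.03% and 3.56 ± 0.670%. The shares of Mup12 (10.8 ± 0.703% and 11.4 ± 0.715%), Mup7 (10.3 ± 2.06% and 10.6 ± 1.13%) and Mup11 (0.351 ± 0.0329% and 0.341 ± 0.0269%) differed by less than 1 SD of the controls. Mup20 took 0.515 ± 0.208% and 0.283 ± 0.0476%. Mup9 was at 4.81 ± 1.53 times Mup1 in controls and at 7.21 ± 1.34 times with selenium (SD, n = 6 each). Shares within a sum are bound to each other, so the higher share of Mup9 and the lower share of Mup1 are not separate results, and neither was tested.

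**Figure D4:**
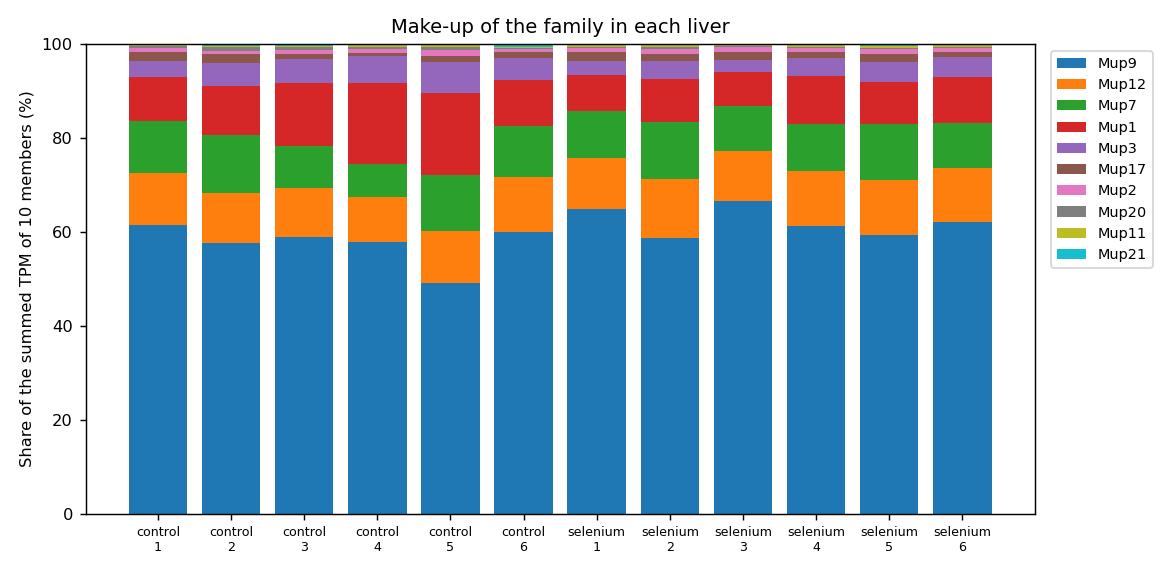
Share of each Mup gene in the summed TPM of the 10, in percent, stacked for each of 12 livers. Mup9 is the largest share in every liver, with a mean of 57.5% in controls and 62.2% with selenium.

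Across the 12 livers, levels of 6 of the near-identical members went together. Mup1 had r from 0.01 to 0.79 over its 9 pairs. Over the 45 pairs of members, Pearson's r of log2(TPM + 1) ran from -0.02 to 0.98, and 19 pairs had a permutation p under 0.05 after Benjamini-Hochberg adjustment. The 15 pairs among Mup2, Mup7, Mup9, Mup11, Mup12 and Mup17 ran from 0.73 to 0.98, and all 15 passed. Within the 6 controls they ran from 0.41 to 0.99 and within the 6 selenium livers from 0.59 to 0.98. All genes of a liver share its library and scaling, and near-identical genes share reads, so these values are not independent. The 6 genes of those 15 pairs are also the members with an unadjusted limma p under 0.05 between groups. Permutations were made across all 12 livers without regard to group, so the difference between groups also enters r and the permutation p.

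Mup7 and Mup17 were the most alike, with r of 0.98 and rho of 0.98 (permutation p = 1e-05 for each, the smallest that 100000 permutations can give, adjusted p = 0.00015 for r and 0.000225 for rho), and r of 0.94 without the 2 livers farthest from the median. Mup9 and Mup12 had r of 0.97 and rho of 0.97 with the same permutation p-values, and r of 0.92 without the 2 livers farthest from the median. Mup1 passed only with Mup3, with r of 0.79 (permutation p = 0.00206, adjusted 0.00752) and rho of 0.73 (permutation p = 0.00998, adjusted 0.0299), and r of 0.73 without the 2 farthest livers. Mup20 passed with no other member, with r from -0.02 to 0.25 over its 9 pairs. Within the 6 controls those 9 pairs ran from -0.09 to 0.65 and within the 6 selenium livers from 0.36 to 0.86.

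**Figure D5:**
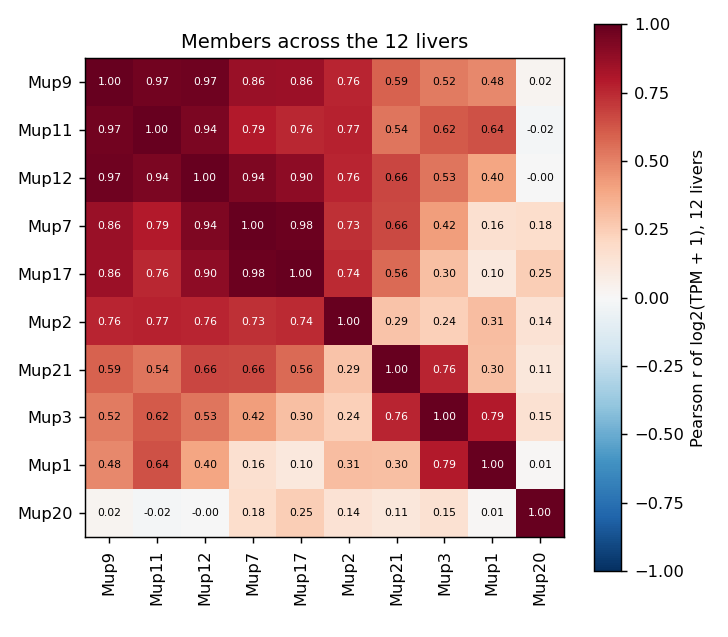
Pearson's r between log2(TPM + 1) of each pair of the 10 Mup genes across 12 livers, coloured from -1 to 1. The block of Mup2, Mup7, Mup9, Mup11, Mup12 and Mup17 has r from 0.73 to 0.98, and the row of Mup20 has r from -0.02 to 0.25.

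Controls 5 and 6 and selenium 1 and 5 had Dbp at 15.7 to 53.6 TPM, and the other 8 had it at 0.72 to 1.44 TPM. Dbp encodes a transcription factor whose level in liver follows the time of day. In the 8 livers with low Dbp the mean sum was 221873 TPM in 4 controls and 262050 TPM in 4 selenium livers, a log2 difference of 0.25. In the others it was 171690 TPM in 2 controls and 340063 TPM in 2 selenium livers, a log2 difference of 1.11. These 2 controls were far apart, at 104213 TPM in control 5, the lowest of all 12 livers, and 239168 TPM in control 6. The 2 selenium livers were at 326768 and 353357 TPM. Mup2 had log2 differences of 0.44 in the low-Dbp livers and 1.43 in the high-Dbp livers, and Mup9 had 0.33 and 1.30. In controls 5 and 6, Mup9 was at 51133 and 143486 TPM and Mup2 at 1217 and 1181 TPM. Mup1 had -0.19 and 0.44, Mup3 had -0.19 and 0.48, and Mup20 had -0.64 and 0.59. In the 8 low-Dbp livers, 2 of 10 members had an unadjusted limma p under 0.05, and 0 had an adjusted p under 0.05. These 2 were Mup20, with lower values and the smaller p, and Mup2, with higher values. The share of all tested genes at that unadjusted p is not given for these 8 livers, so the count has no background to be set against. Whether the difference depends on Dbp was not tested, with 2 livers on each side of the high-Dbp comparison.

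Among the 39 other Mup rows, 12 are named Mup with a number and 27 are pseudogenes, 11 of which were at 0 in every liver. All Mup rows together made up 24.1 ± 6.82% of TPM in controls and 33.0 ± 5.07% with selenium (SD, n = 6 each), and the 10 members were 84.5 ± 2.76% and 87.2 ± 1.24% of that. Mup22 was the most abundant of the rest, at 17081 ± 4055 and 19826 ± 2202 TPM, followed by Mup10 at 10866 ± 2254 and 11946 ± 1080 TPM (SD, n = 6 each). The 12 rows that were tested were the numbered genes without Mup4, and the pseudogene Mup-ps17. All 12 had a log2 difference above 0, against 45.4% of all tested genes, with a median of 0.32. An unadjusted limma p under 0.05 was found for 6, all higher, against 7.01%, and 0 had an adjusted p under 0.05. Mup-ps17 was at 3.95 ± 1.02 and 8.11 ± 2.82 TPM (SD, n = 6 each), with a limma adjusted p of 0.0733. Its groups did not overlap, as for 0.16% of all tested genes with higher values. The authors' deposited table gave Mup-ps17 an unadjusted p of 0.192 and did not call it. Shared reads may link these rows and the members, so the counts are not of independent genes. In the authors' deposited table, Mup6 and Mup8 had adjusted p-values of 0.0281 and 0.0468.

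Genes whose levels followed the Mup sum were taken as the 8 with the highest r to it among 5469 genes, of which 23 had r over 0.8 and the median r was -0.08. The closest was Ugt2b38, a male-biased glucuronosyltransferase gene, with r of 0.91 and rho of 0.83 over 12 livers. It was at 31.6 ± 16.9 TPM in control livers and 55.3 ± 17.7 TPM in selenium livers (SD, n = 6 each), with a limma adjusted p of 0.199. Aspa (aspartoacylase) had r of 0.89, Pygl (liver glycogen phosphorylase) 0.88, and Abcd3 (a peroxisomal transporter) 0.86. Dmgdh (dimethylglycine dehydrogenase) had 0.85, Tprkb 0.85, Sdha (a subunit of succinate dehydrogenase) 0.84 and Sord (sorbitol dehydrogenase) 0.84. Without the 2 livers farthest from the median sum, r was 0.67 for Ugt2b38, 0.56 for Aspa and 0.50 for Dmgdh, so these values rest in part on those 2 livers. They were picked as the highest, and no p is given.

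Regulators of Mup transcription were measured beside the members. For this and the following lists, the shares of all tested genes at an unadjusted limma p under 0.05 are 7.01% higher and 11.4% lower. The share with a log2 difference above 0 is 45.4%. Of 22 listed genes, 20 were tested, 0 were called by limma, and 3 had an unadjusted p under 0.05 with higher and 1 with lower values, with a median log2 difference of -0.04 against -0.03 for all genes. Cebpb, one of the C/EBP factors, was at 21.3 ± 5.14 TPM in control livers and 10.2 ± 3.63 TPM in selenium livers (SD, n = 6 each), with a log2 difference of -1.04 and a limma adjusted p of 0.0671. Its groups did not overlap, with the lowest control at 15.8 TPM and the highest selenium liver at 14.6 TPM. Of all tested genes, 1.47% were lower with selenium without overlap. Hnf4a had a log2 difference of 0.39 (limma adjusted p = 0.243), Rxra 0.55 (limma adjusted p = 0.169) and Zhx2, a zinc finger and homeobox regulator of liver genes, 0.32 (limma adjusted p = 0.213). Ghr, the growth hormone receptor, was at 175 ± 13.4 and 167 ± 13.0 TPM, and Stat5b at 4.71 ± 0.637 and 4.43 ± 0.888 TPM (SD, n = 6 each).

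Of 14 genes of the growth hormone response, 12 were tested and 0 called by limma, 1 had an unadjusted p under 0.05 with higher and 2 with lower values, with 7 log2 differences above 0 and a median of 0.09. Egfr, the epidermal growth factor receptor, was at 44.8 ± 5.77 TPM in control livers and 65.1 ± 22.8 TPM in selenium livers (SD, n = 6 each), a log2 difference of 0.48 with a limma adjusted p of 0.195, and 5 of 6 selenium livers were above the highest control. Lifr, the leukaemia inhibitory factor receptor, had a log2 difference of 0.38 (limma adjusted p = 0.279). Lower values were found for Ptpn2, a phosphatase of cytokine signalling, at -0.33 and for Igfbp3, which carries IGF1, at -0.56, with a limma adjusted p of 0.166 and 0.167. Igf1, the circulating growth factor induced by growth hormone, was at 369 ± 50.8 and 338 ± 80.6 TPM (SD, n = 6 each).

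All 18 other male-biased liver genes were tested and 0 were called by limma. An unadjusted limma p under 0.05 with higher values was found for 4, against 7.01% of all tested genes. Log2 differences were above 0 for 15, against 45.4% of all tested genes, with a median of 0.26. Serpina1e, a male-biased serine protease inhibitor gene, was at 8.20 ± 3.06 TPM in control livers and 16.3 ± 4.30 TPM in selenium livers (SD, n = 6 each). Its log2 difference was 0.97, with a limma adjusted p of 0.0961. All 6 selenium livers were above the highest control, as for 0.16% of all tested genes. Susd4 had a log2 difference of 0.50 and Nudt7, a peroxisomal coenzyme A hydrolase, 0.79. Of 21 female-biased genes only 3 passed the filter, with 0 called by limma, 0 at an unadjusted p under 0.05 and a median log2 difference of -0.37. These were Cyp2a4 at -0.87, Fmo2 at -0.37 and Acot3 at 0.45, and Cyp3a41b was at 0 in all livers.

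Other lipocalin genes and other secreted liver proteins were counted in the same way. Of 12 listed lipocalins, 9 were tested and 3 had a log2 difference above 0, with a median of -0.06, 0 called by limma and 2 at an unadjusted p under 0.05 with higher values. Apom, the apolipoprotein that carries sphingosine phosphate, was at 58.8 ± 26.6 TPM in control livers and 110 ± 35.8 TPM in selenium livers (SD, n = 6 each), with a log2 difference of 0.94 and a limma adjusted p of 0.119. Obp2a, an odorant-binding protein gene, had a log2 difference of 0.95 (limma adjusted p = 0.239), Rbp4, the retinol carrier, had -0.15 (limma adjusted p = 0.649) and Orm2, an acute-phase protein gene, had -0.83 (limma adjusted p = 0.747). Of 30 other abundant secreted hepatocyte proteins, all were tested, 17 had a log2 difference above 0, the median was 0.04, 0 were called by limma and 3 had an unadjusted p under 0.05 with higher values. Fga, a fibrinogen chain, had 0.62, Serpina1d 0.69 (limma adjusted p = 0.117), Serpina1a 0.41 and Serpina3k 0.52. Counts of lists were not tested against one another.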

How the data were processed

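The authors deposited one TPM table of 12 libraries (57010 genes), and single-library tables that held the same value in 100% of entries. RSEM 1.2.8, HISAT2 2.1.0, DESeq2 and the build GRCm39 are named in the submitters' processing notes, with no roles or order. TPM, deposited by the authors, sum to 999999 to 1000000 in each library, so the depth is not given and no counting interval can be made. The authors' deposited table of log2 fold changes and adjusted p-values was copied without recomputing.

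TPM were taken as log2(TPM + 1), filtered at 1 TPM in 6 or more libraries (9980 genes), and tested with limma 3.58.1 (trend, empirical Bayes) in R 4.3.3 with Benjamini-Hochberg adjustment at 0.05. A fold on this scale understates changes of low genes. The script was tested on simulated data. Correlations used 100000 permutations in Python 3.11.15 with scipy 1.17.1. Sequences came from GENCODE M21 and RefSeq tables of GRCm38, with Biopython 1.88, an older build than the authors', so positions are those of that build. The members and gene lists were chosen with earlier results of these data known. From each pathway list the 4 genes with the smallest unadjusted p (or all tested, if fewer) are named, likewise for the zonal hepatocyte markers; other marker lists are given by counts, with 2 single genes. Ghr, Stat5b and Igf1 are further genes, named for their role after their values were seen. The labels do not say how libraries of a group relate beyond 6 separate mice. The limma p-values set the difference between groups against the spread between these samples. Columns of other samples numbered 0.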

Additional observations from a re-analysis of the deposited data

Results flagged for a closer look

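Within each group of 6 livers, single values were examined for a gap to the nearest value above 0.625 of the group's range, over 102 groups of 6. Chance flags about 1 group in 20, and 11 values stood apart. None was a value of the 10 Mup genes or of their sum. Among other Mup rows, Mup8 was at 662 TPM in selenium 5 (next 489) and Mup13 at 9.08 TPM in selenium 1 (next 5.48). Selenium 2 was highest for Egfr at 108 TPM (next 65.3), for Obp2a at 21.8 TPM (next 5.84) and for Serpina3k at 5376 TPM (next 4156). Control 4 was highest for the female-biased genes Cyp2a4 at 21.7 TPM (next 1.40) and Acot3 at 6.77 TPM (next 1.89), and for Rbp4 at 3884 TPM (next 2678). Fmo2 was at 15.1 TPM in selenium 4 (next 6.49). Orm2, an acute-phase lipocalin, was at 2171 TPM in control 5 (next 411) and at 1117 TPM in selenium 3 (next 195).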

How the results depend on the processing

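The number of members called was 0 in each of 26 alternatives (pseudocount, filter, scaling, empirical Bayes, weights, exact permutation, replicate block, low-Dbp livers and leaving out each liver). The members at an unadjusted p under 0.05 numbered 2 to 6. All of these had higher values, except Mup20, which was lower with array weights and in low-Dbp livers. Shares of all genes at that p are not given for the alternatives. The exact permutation test over 924 labellings gave 4 members at an unadjusted p under 0.05. The lowest adjusted p of Mup2 was 0.0530, without selenium 6, and the highest 0.171. The summed log2 difference ran from 0.25 (low-Dbp livers) to 0.72 (libraries scaled to the total of all other genes), and from 0.36 without control 5 to 0.65 without control 1. Reversed directions were Mup1 at -0.0755 and Mup3 at -0.0615 without mitochondrial-encoded genes, and Mup1 at -0.19, Mup3 at -0.19 and Mup21 at -0.00061 in low-Dbp livers. Leaving out 1 liver, Mup1 ran from -0.0648 (without control 5) to 0.12 (without control 4) and Mup3 from -0.0700 (without control 5) to 0.12 (without selenium 3). The cause was not tested. The median of all genes was -0.11 without mitochondrial-encoded genes and 0.12 scaled to genes other than Mup. All-gene calls ran from 0 to 255. Same-numbered mice had deviations correlated at -0.14 to 0.11, with own number best only for number 1. The labels tie no mice by number, and these correlations cannot decide whether such mice are linked. The replicate block gave 0 members called, a summed log2 difference of 0.54, and 3 calls among all genes against 33. TPM give no depth, so counting error is unknown.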

Other observations

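Control 5 had the lowest Mup sum of the 12 livers and the highest Orm2, at 2171 TPM. Selenium 3 had the second highest Orm2, at 1117 TPM, with a Mup sum of 30.0% of all TPM. Of 12 periportal hepatocyte markers tested, 4 had a log2 difference above 0, with a median of -0.19, 0 were called by limma, and 2 had an unadjusted p under 0.05 in each direction. Sult5a1 had a log2 difference of 1.08 (limma adjusted p = 0.0721) and Cyp2f2 0.47 (limma adjusted p = 0.261), while Arg1 had -0.38 (limma adjusted p = 0.260) and Gls2 -0.33 (limma adjusted p = 0.224). Of 11 pericentral markers tested, 6 had a log2 difference above 0, with a median of 0.04, 0 were called by limma, and 1 had an unadjusted p under 0.05 in each direction. Cyp2c29 had 0.70 (limma adjusted p = 0.241) and Cyp2e1 0.25 (limma adjusted p = 0.550), while Lect2 had -0.63 (limma adjusted p = 0.139) and Axin2 -0.24 (limma adjusted p = 0.366).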
